A study of Rattus norvegicus with 16 samples.

Results

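The genes described here were picked by name as genes of motile cilia, the beating hair-like organelles of ependymal cells. Some of them did not follow the ependymal markers in the values given further on. All were measured in CA1, a field of the hippocampus, of rat pups that had or had not gone through seizures a week earlier. Members were chosen by name from the deposited isoform table: every gene symbol starting with Cfap, Dnah, Dnai, Rsph, Drc or Tekt, together with Ccdc153, Tmem212, Enkur, Dynlrb2, Wdr93, Spag6 and Spag17. Foxj1 and Spag16 also belong to the rule, had no value under these symbols and were not analysed here. This gave 59 genes out of 16602 gene symbols, read from 67 of 21698 isoform rows; 7 of the 59 genes had several isoforms. Sorted into roles by symbol alone, they are 11 dynein heavy chains, 2 dynein intermediate chains and 5 radial spoke proteins. There are also 3 Drc subunits of the nexin link, 5 tektins, 2 Spag proteins of the central apparatus, 26 Cfap proteins and 5 others. A Cfap protein or one of the others can belong to one of these structures too, as Ccdc153 does.

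The kainate group was 8 male Sprague-Dawley rats injected subcutaneously on postnatal day 7 with 2 mg/kg of kainate, which activates glutamate receptors and sets off seizures. The control group was 8 male rats of the same strain injected with saline on that day. All 16 were killed on postnatal day 14, dorsal hippocampal slices of 400 µm were cut and left to recover for 60 min, and CA1 was then cut out for RNA. Per the labels' protocols every kainate rat had seizures, and no animal died. The overlying cortex and the dentate gyrus stayed on the slices during recovery. The titles give each library a number from 1 to 8 within its group and do not say what the number stands for.

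A motile cilium is a ring of microtubule doublets around a central pair. Outer and inner dynein arms pull neighbouring doublets past each other, the nexin link holds them together, and radial spokes carry signals from the central apparatus to the arms. Ependymal cells line the brain ventricles and carry tufts of these cilia, whose beating moves cerebrospinal fluid. Neurons and astrocytes carry a single cilium of another kind, without dynein arms or a central pair. The lining of the lateral ventricle lies beside the hippocampus and is no part of CA1, and how much of it each dissection took was not measured.

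In mice and other vertebrates the genes of motile cilia are switched on by FOXJ1, a forkhead factor, and by factors of the RFX family. The bases before the start of 6 members are shown because these genes vary together, or in the case of Dnah9 apart from the rest, in the values given further on. They are the 3 ependymal markers with an entry, Ccdc153, Cfap126 and Tmem212, then Tekt1 and Cfap161, picked because their windows hold the RFX motif and their levels follow the markers, and then Dnah9. Each is the stretch of 250 bases just before the first listed gene start in RefSeq, build GRCr8, printed 5′ to 3′ on the strand of the gene, with capitals for a match to GTTGCC on either strand.
Ccdc153 (listed by RefSeq as Drc12), chr8:53474409-53474658, plus strand: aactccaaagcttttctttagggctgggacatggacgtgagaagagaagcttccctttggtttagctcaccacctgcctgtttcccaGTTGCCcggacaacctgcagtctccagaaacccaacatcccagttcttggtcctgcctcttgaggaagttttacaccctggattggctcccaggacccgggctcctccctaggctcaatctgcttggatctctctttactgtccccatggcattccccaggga
Cfap126, chr13:86058892-86059141, plus strand: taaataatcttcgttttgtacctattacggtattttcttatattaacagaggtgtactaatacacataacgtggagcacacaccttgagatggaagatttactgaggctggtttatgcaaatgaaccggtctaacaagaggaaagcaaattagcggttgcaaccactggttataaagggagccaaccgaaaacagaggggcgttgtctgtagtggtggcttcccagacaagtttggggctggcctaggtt
Tmem212, chr2:112741869-112742118, minus strand: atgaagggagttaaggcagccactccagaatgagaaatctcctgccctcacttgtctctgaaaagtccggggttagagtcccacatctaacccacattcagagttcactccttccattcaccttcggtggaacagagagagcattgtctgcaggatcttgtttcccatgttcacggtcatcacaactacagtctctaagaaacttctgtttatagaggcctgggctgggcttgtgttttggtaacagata
Tekt1, chr10:57479122-57479371, minus strand: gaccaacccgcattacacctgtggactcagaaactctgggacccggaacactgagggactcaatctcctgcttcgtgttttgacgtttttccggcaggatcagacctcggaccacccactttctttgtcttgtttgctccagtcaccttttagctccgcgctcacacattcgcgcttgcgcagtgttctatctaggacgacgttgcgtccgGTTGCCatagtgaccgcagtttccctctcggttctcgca
Cfap161, chr1:147177822-147178071, minus strand: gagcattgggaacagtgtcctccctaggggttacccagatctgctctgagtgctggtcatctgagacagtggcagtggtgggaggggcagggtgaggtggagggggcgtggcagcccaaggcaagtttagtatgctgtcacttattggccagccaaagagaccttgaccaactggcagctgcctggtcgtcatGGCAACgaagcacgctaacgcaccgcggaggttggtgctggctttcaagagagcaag
Dnah9, chr10:51363964-51364213, minus strand: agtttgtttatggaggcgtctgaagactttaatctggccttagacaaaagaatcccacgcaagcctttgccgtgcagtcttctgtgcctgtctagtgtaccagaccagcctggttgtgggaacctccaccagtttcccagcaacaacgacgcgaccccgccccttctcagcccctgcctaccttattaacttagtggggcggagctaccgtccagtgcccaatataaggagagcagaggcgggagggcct
Of the 59 members, 49 had such a window, 48 matched by symbol and 1 by synonym; Spag6 was left out because RefSeq places it on another chromosome than the authors' table. GTTGCC or its reverse complement GGCAAC, the core of the RFX motif, was found in 12 of these 49 windows (24.5%), against 9.9% of the windows of all 27457 genes. In this paragraph all genes are those of RefSeq with a promoter entry, measured here or not, so the shares come from unlike sets of genes. It was in 7 of the 31 windows of members whose levels followed the ependymal markers (r over 0.5, as defined further on) and in 5 of the other 18. The fuller palindrome, GTTNCC and GGNAAC with any pair of bases between them, was in 0 of the 49 and in 0.353% of all genes. The forkhead letters TGTTTAC or GTAAACA were in 2 of 49 (4.08%), against 3.25% of all genes. In the Ccdc153 window the RFX core lies 163 to 158 bases before the start, in that of Tekt1 39 to 34 bases before it and in that of Cfap161, on the other strand, 57 to 52 bases before it. These matches are descriptions of letters and not binding sites.

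The 4 ependymal markers used here, Ccdc153, Cfap126, Tmem212 and Enkur, were in the table. In the authors' deposited table the mean normalized counts over all libraries were 530 for Ccdc153 (ENSRNOT00000059776), 258 for Cfap126 (ENSRNOT00000050804), 537 for Enkur (ENSRNOT00000025140), and 193 and 73.7 for the isoforms of Tmem212 (ENSRNOT00000074723 and ENSRNOT00000016858). Over the 67 member rows this count ran from 6.48 to 4060, with a median of 199, against a median of 509 over all isoforms. The per-animal values used from here on are the authors' log2 values, with the isoforms of a gene summed before the log2. Their transform is not named. They look like a regularized logarithm, which compresses the differences of weakly expressed genes. These totals are not scaled by gene length, so levels of different genes are not compared, and the depth of the libraries is unknown.

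The first comparison was kainate against control. As a set the members lay lower after kainate by a small margin, and no gene passed the test. The mean was lower after kainate for 57 of 59 members, where 52.4% of all 16602 genes had a lower mean. The median difference, kainate minus control, was -0.076 on the log2 scale for the members and -0.0017 for all genes. The exceptions were Dnah9, a heavy chain of the outer arm, and Cfap97, at differences of 0.11 and 0.032. By limma with Benjamini-Hochberg adjustment over all genes, 0 of 59 members and 0% of all genes passed an adjusted p of 0.05. At an unadjusted p under 0.05, 7 members were lower and 0 higher, where 0.922% of all genes were lower and 0.464% higher. With the replicate number as a block 11 were lower and 1 higher (2.55% and 4.05% of all genes), and again 0 passed. A term for the sets of replicates 1 to 4 and 5 to 8 gave 9 lower and 1 higher (1.83% and 3.23% of all genes). On single isoforms, limma put 5 of the 67 member rows lower and 0 higher at that p (0.843% and 0.654% of all isoforms). With the block it put 7 rows lower and 1 higher, and the share of all isoforms was not taken for it. No member had groups that did not overlap (0% of all genes). The members vary together from library to library, so these counts are not counts of independent genes.

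**Figure D1:**
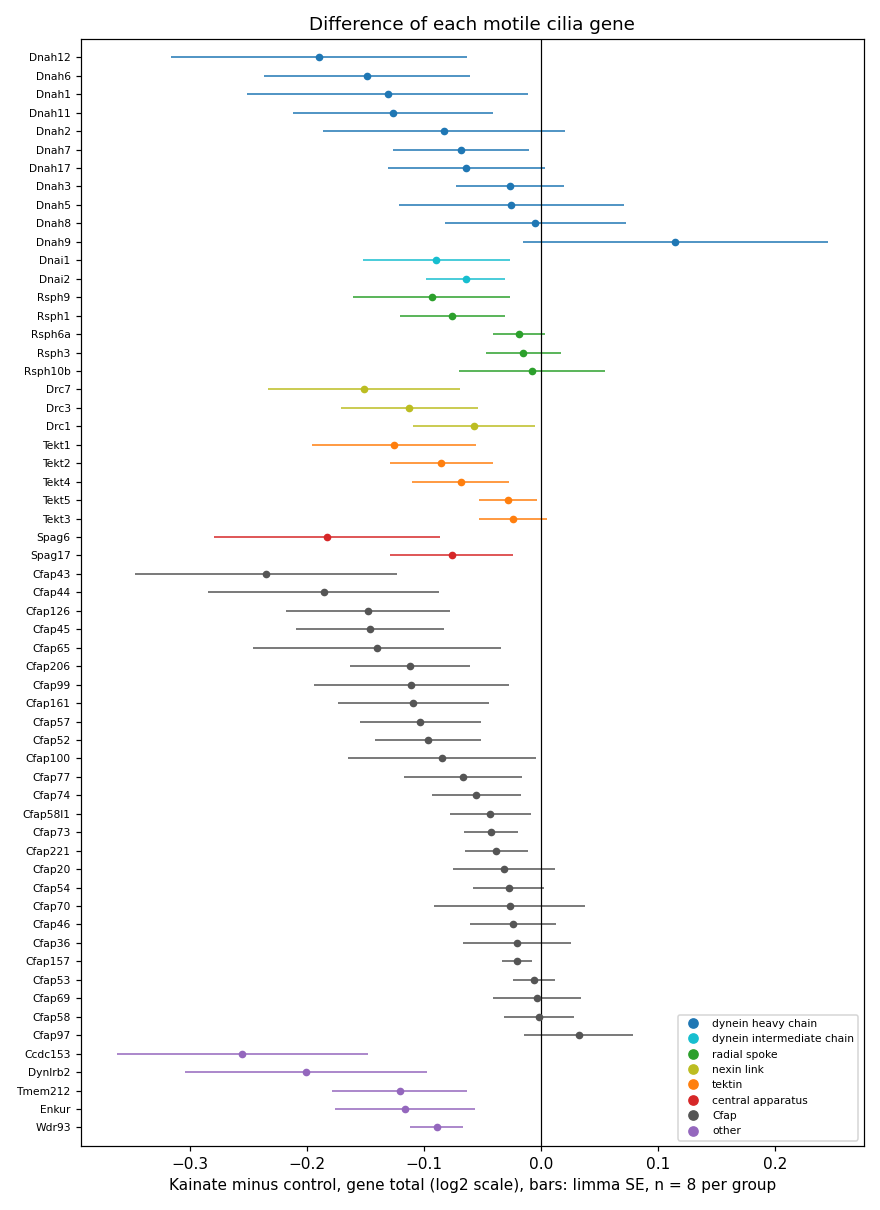
Difference of each motile cilia gene, kainate minus control, in gene totals on the log2 scale (x axis), grouped by role down the page; bars are the limma SE with 8 libraries per group. Dnah9 (0.11) and Cfap97 (0.032) lie right of zero, and the other 57 lie left of it, down to -0.26 for Ccdc153.

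The set rested in part on replicate 2. Control replicate 2 had the highest value of all 16 libraries for 38 of 59 members, and kainate replicate 2 the lowest for 18. These counts were not taken over all genes. The median deviation from the mean of 16 libraries was 0.21 and -0.11 for the members in these libraries, and -0.0021 and -0.0036 for all genes. Without control replicate 2 the mean was lower for 50 members (53.6% of all genes) and the median difference was -0.042, with 1 lower at an unadjusted p under 0.05 (1.12% of all genes). Without kainate replicate 2 it was lower for 56 members (51% of all genes), with a median of -0.062 and 1 at that p (0.681% of all genes). Without both it was lower for 47 members (53.2% of all genes), with a median of -0.036 and 1 at that p (0.771% of all genes). The first principal component of all gene totals, 45.1% of their variance, separates replicates 1 to 4 from 5 to 8 in both groups, so the difference was also taken within each set. It was negative for 51 members within replicates 1 to 4, with a median of -0.090, and for 51 within replicates 5 to 8, with a median of -0.061 (48.8% and 52.3% of all genes). At an unadjusted p under 0.05, replicates 1 to 4 alone gave 2 lower and 1 higher (1.01% and 1.03% of all genes), and replicates 5 to 8 alone 5 lower and 0 higher (2.2% and 2.91% of all genes). For 45 members it was negative in both sets, where 28.6% of all genes were. Between same-numbered libraries, 34 members were lower after kainate in 6 or more of 8 pairs, where 19.6% of all genes were.

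The number of members at an unadjusted p under 0.05 moved widely with single libraries. With all libraries it was 7 lower (0.922% of all genes). It was 13, 11 and 15 without kainate replicates 1, 5 and 6 (0.891%, 1.26% and 1.42% of all genes), and 1, 2, 3 and 1 without kainate replicates 2, 3, 4 and 8 (0.681%, 0.645%, 0.873% and 0.602%). It was 21, 11 and 13 without control replicates 1, 4 and 7 (1.58%, 0.934% and 1.12% of all genes), and 1, 1 and 2 without control replicates 2, 5 and 6 (1.12%, 0.584% and 0.741%). With any 1 of the libraries left out, limma called 0 members at an adjusted p of 0.05.

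**Figure D2:**
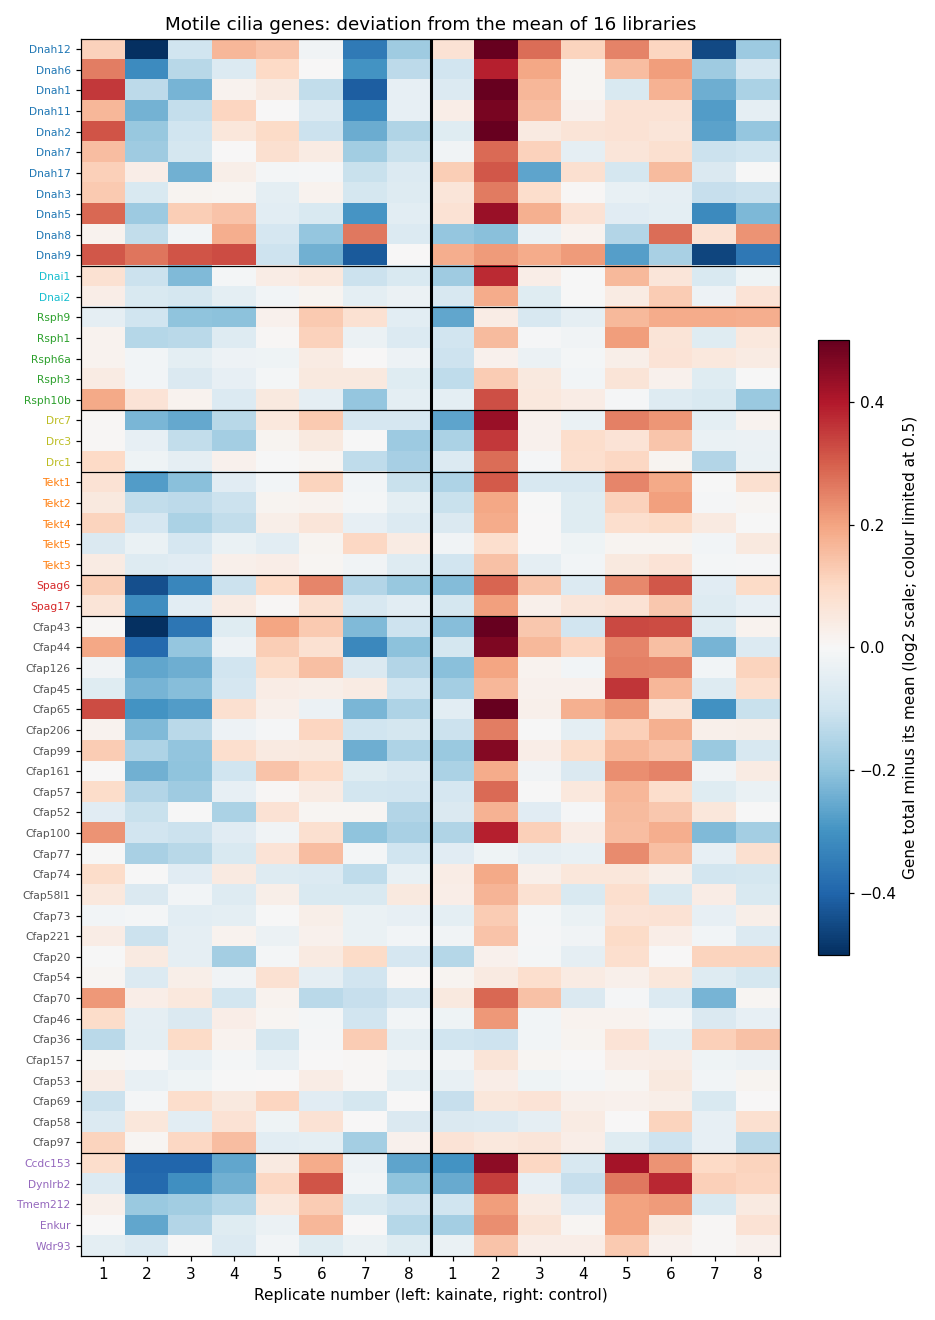
Gene totals of the 59 members (rows, grouped by role) in each library (columns, kainate at left and control at right, by replicate number), shown as the deviation from the gene's mean over 16 libraries on the log2 scale. Control replicate 2 is the reddest column, with the highest value for 38 of 59 members, and kainate replicate 2 holds the lowest for 18.

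The 4 ependymal markers had the following values. Ccdc153 encodes a coiled-coil protein that RefSeq lists as Drc12, a subunit of the nexin link. Its log2 total had a lowest, median and highest value of 8.59, 8.84 and 9.17 in kainate libraries, against 8.68, 9.09 and 9.43 in controls. The ranges overlapped for most of their length, with kainate replicate 3 lowest and control replicate 2 highest. The difference was -0.26 ± 0.11 (SE, n = 8 per group), a ratio of 0.838, with a limma unadjusted p = 0.0288 and adjusted p = 1.00, and with kainate lower in 7 of 8 pairs. The log2 fold change of Ccdc153 in the authors' deposited table is -0.14, and its adjusted p there is 0.660.

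Cfap126, known as Flattop and needed in mice to place the bases of cilia, ran from 7.71 through a median of 7.89 to 8.12 in kainate libraries. In controls it ran from 7.77 through 8.04 to 8.23. Kainate was lower in 7 of 8 pairs, and the difference was -0.15 ± 0.070 (SE, n = 8 per group; limma unadjusted p = 0.0490, adjusted p = 1.00). Tmem212, a membrane protein whose role is not given here, had values of 7.84, 7.93 and 8.15 in kainate libraries, against 7.92, 8.07 and 8.24 in controls (lowest, median and highest). It differed by -0.12 ± 0.058 (SE, n = 8 per group), and kainate was lower in 6 of 8 pairs. Its isoforms differed by -0.14 ± 0.065 (ENSRNOT00000074723) and -0.074 ± 0.052 (ENSRNOT00000016858; SE, n = 8 per group).

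Enkur encodes enkurin, a protein of the inside of the doublet microtubules. Its values were 8.79, 9.01 and 9.22 in kainate libraries, against 8.88, 9.11 and 9.29 in controls (lowest, median and highest). The difference was -0.12 ± 0.060 (SE, n = 8 per group), and kainate was lower in 6 of 8 pairs. Of these 4 genes, Ccdc153 and Cfap126 were under an unadjusted p of 0.05, and in all 4 the kainate and control ranges overlapped. With the replicate block, limma's unadjusted p was 0.0607 for Ccdc153, 0.0228 for Cfap126, 0.0209 for Tmem212 and 0.0986 for Enkur, so that Ccdc153 was no longer under 0.05 and Tmem212 was. In bulk tissue fewer ependymal cells and less RNA per cell cannot be told apart.

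**Figure D3:**
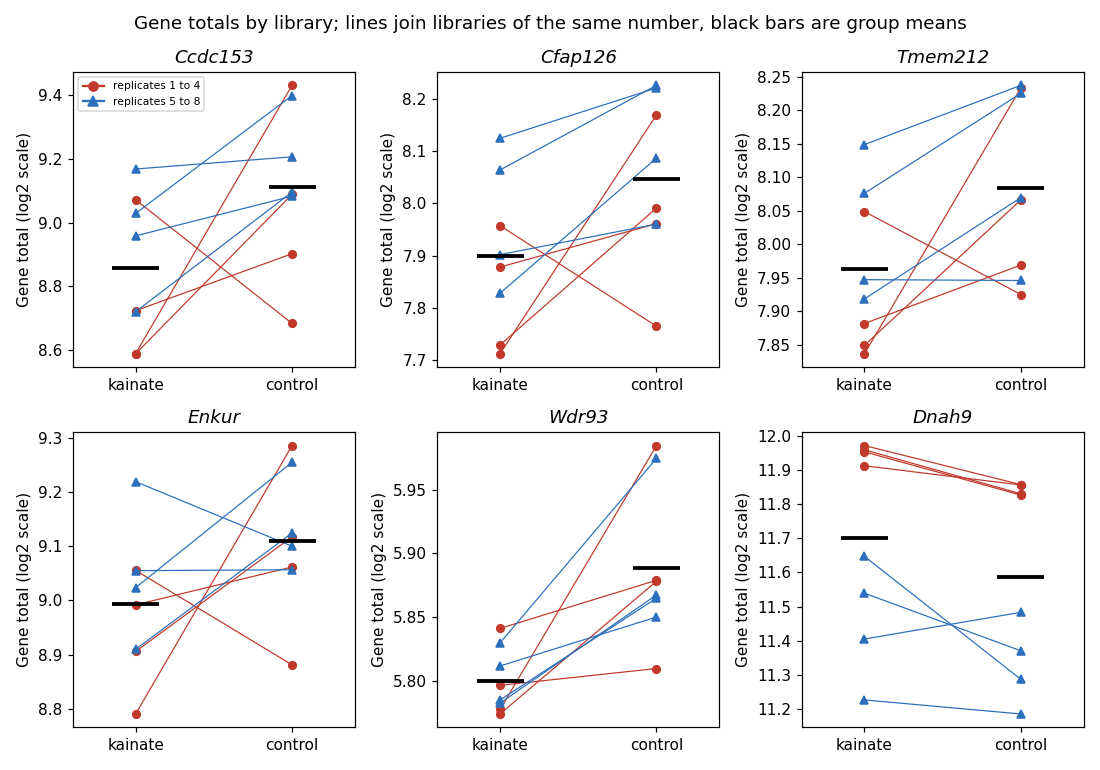
Gene totals on the log2 scale (y axis) in kainate (left) and control (right) libraries for the 4 markers, Wdr93 and Dnah9; lines join libraries of the same number and black bars are group means. Lines climb toward control in 6 to 8 of 8 pairs in the first 5 panels, and in Dnah9 they fall toward control in 7 of 8.

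Wdr93, which encodes a protein with WD repeats, had the smallest p of all members. It had 5.77, 5.79 and 5.84 in kainate libraries, against 5.81, 5.87 and 5.98 in controls (lowest, median and highest), so that the ranges met over a short stretch. Kainate was lower in all 8 pairs, at -0.089 ± 0.023 (SE, n = 8 per group; limma unadjusted p = 0.00104, adjusted p = 1.00, or 0.750 with the replicate block). The share of all genes lower in all 8 pairs was not taken. Its authors' mean normalized count was 58.0, a level at which the deposited scale compresses differences. In the authors' deposited table the ratio for Wdr93 is 0.860, and its unadjusted p is 0.00116 and its adjusted p is empty. Its mean was 5.84 in replicates 1 to 4 and 5.85 in replicates 5 to 8.

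Axonemal dynein heavy chains are the engines of the arms. Of these 11 motor genes, 10 had lower means in kainate libraries, with differences between -0.19 and 0.11 and 0 at an unadjusted p under 0.05. Dnah12, a heavy chain of the inner arm, had values of 9.86, 10.33 and 10.56 in kainate libraries, against 9.94, 10.50 and 10.96 in controls (lowest, median and highest). It differed by -0.19 ± 0.13 (SE, n = 8 per group), with kainate lower in 4 of 8 pairs, and by -0.35 within replicates 1 to 4 and -0.033 within replicates 5 to 8. Dnah6, also of the inner arm, differed by -0.15 ± 0.088 (SE, n = 8 per group) and was lower in 7 of 8 pairs. The intermediate chains Dnai1 and Dnai2, which anchor the outer arm, differed by -0.089 ± 0.063 and -0.064 ± 0.034 (SE, n = 8 per group), each lower in 7 of 8 pairs. Dynlrb2, a light chain of the dynein that drives transport inside cilia, differed by -0.20 ± 0.10 (SE, n = 8 per group) and was lower in 7 of 8 pairs. Its unadjusted limma p was 0.0681, or 0.0322 with the replicate block.

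Dnah9, a heavy chain of the outer arm, was the 1 member among the dynein chains with a higher mean in kainate libraries. Its total had a lowest, median and highest value of 11.23, 11.78 and 11.97 in kainate libraries, against 11.18, 11.66 and 11.86 in controls. The difference was 0.11 ± 0.13 (SE, n = 8 per group; limma unadjusted p = 0.390). With the replicate block the SE was 0.039, with a limma unadjusted p = 0.0127 and adjusted p = 0.750. Kainate was higher in 7 of 8 pairs. Most of its spread lay between the sets of replicates: in replicates 1 to 4 it ran from 11.91 to 11.97 in kainate and from 11.83 to 11.86 in control libraries, so that within this set the groups did not overlap, as for 0.964% of all genes in that direction. In replicates 5 to 8 it ran from 11.23 to 11.65 in kainate and from 11.18 to 11.48 in control libraries. Within a set of replicates, 3 other members did not overlap, all lower after kainate. They were Tekt5 in replicates 1 to 4 (0.729% of all genes in that direction), and Rsph9 and Wdr93 in replicates 5 to 8 (1.5%). The authors' deposited table gives Dnah9 a ratio of 1.10, p = 0.0107 before adjustment and p = 0.551 after it, the smallest adjusted p of a member row. At an unadjusted p under 0.05, the authors' deposited table has 8 member rows lower and 1 higher, against 1.76% and 3.9% of all isoforms, and 0 passed its adjusted p of 0.05 (0.042% of all isoforms).

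The parts that link and steer the arms had lower means throughout. Of the 3 nexin link subunits named Drc here, Drc7 differed by -0.15 ± 0.082, Drc3 by -0.11 ± 0.059 and Drc1 by -0.057 ± 0.052 (SE, n = 8 per group). All 5 radial spoke genes had lower means, with a median of -0.019. Rsph9, a protein of the spoke head, differed by -0.093 ± 0.067 and Rsph1, also of the head, by -0.076 ± 0.045 (SE, n = 8 per group). The total of Rsph10b differed by -0.0075 ± 0.062 (SE, n = 8 per group), and its isoforms went opposite ways. The protein-coding isoform of Rsph10b (ENSRNOT00000034483) differed by -0.063 ± 0.066 and its processed transcript (ENSRNOT00000092526) by 0.064 ± 0.088 (SE, n = 8 per group), neither under an unadjusted p of 0.05. Under the block 1 gene in each of these roles was (2.55% of all genes were lower), Drc3 at an unadjusted limma p of 0.0464 and Rsph9 at 0.0422.

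In the central apparatus, Spag6 had values of 8.30, 8.61 and 8.98 in kainate libraries, against 8.52, 8.85 and 9.04 in controls (lowest, median and highest). It differed by -0.18 ± 0.097 and Spag17, of the same structure, by -0.076 ± 0.052 (SE, n = 8 per group), each lower in 7 of 8 pairs. The 5 tektins, filament proteins inside the doublets, all had lower means, with a median of -0.069. Tekt1 differed by -0.13 ± 0.070 and Tekt2 by -0.085 ± 0.044 (SE, n = 8 per group). None of these 7 genes was under an unadjusted p of 0.05 in limma, with or without the replicate block.

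Of the 26 Cfap genes, 25 had lower means, with a median of -0.049. At an unadjusted p under 0.05, 5 of them were lower (0.922% of all genes). Cfap43, which in protists and mammals tethers inner dynein arms, had values of 9.43, 9.86 and 10.14 in kainate libraries, against 9.74, 10.02 and 10.46 in controls (lowest, median and highest). It differed by -0.24 ± 0.11 (SE, n = 8 per group), and by -0.32 within replicates 1 to 4 and -0.15 within replicates 5 to 8. Its partner Cfap44 differed by -0.19 ± 0.099 (SE, n = 8 per group), with an unadjusted limma p of 0.0761. Cfap45 and Cfap52, proteins that line the inside of the doublets, differed by -0.15 ± 0.064 and -0.096 ± 0.045, and Cfap206 by -0.11 ± 0.051 (SE, n = 8 per group). Each of these 3 was under an unadjusted p of 0.05 and lower in 6 of 8 pairs. With the replicate block 6 Cfap genes were under it (2.55% of all genes were lower at that p). Of these, Cfap126, Cfap45 and Cfap52 stayed, and Cfap73, Cfap77 and Cfap161 (differences of -0.043, -0.067 and -0.11) were gained. Cfap43 and Cfap206 were lost, at unadjusted limma p of 0.0930 and 0.0519. At the other end, Cfap69 differed by -0.0033 ± 0.038, Cfap36 by -0.021 ± 0.046 and Cfap20, a protein of the junction between the tubules of a doublet, by -0.032 ± 0.043 (SE, n = 8 per group).

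The next question was whether the members vary with the ependymal markers from rat to rat. A marker score was taken for each library as the mean deviation of the 4 markers from their group means, and each gene's deviations were set against it by Pearson's r over the 16 libraries. A marker was compared with a score made without it. All points share libraries, depth and the split of replicates, so r is a description. The median r was 0.70 for the members and 0.021 for all genes, and r was over 0.5 for 38 of 59 members (64.4%) and for 10.4% of all genes. Ccdc153 had the highest r of the members (0.96), followed by Rsph1, Spag6, Cfap126, Drc7 and Tekt1, each between 0.94 and 0.95. With the means of the sets of replicates also removed, r was over 0.5 for 48 members (8.85% of all genes). Without the 2 libraries farthest from the median score, control replicate 1 and kainate replicate 6, it was over 0.5 for 41 members (5.08% of all genes). The deviations there were still from the means of all 8 libraries of a group, so a difference between the groups can enter this r.

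All 38 members with r over 0.5 had lower means in kainate libraries, and their median difference was -0.095. Of the other 21, 19 had lower means, and the median was -0.027. This comparison uses the same libraries on both axes and was not tested. The r was below 0 for Dnah9 (-0.40), Cfap97 (-0.37), Cfap36 (-0.088) and Dnah8 (-0.041), and 0.13 for Cfap69. Several heavy chains had low r over all libraries but followed the markers within the sets of replicates: Dnah5 had 0.14 and 0.74, Dnah3 0.25 and 0.84, and Dnah2 0.48 and 0.85. Within the sets, Dnah9 had an r of 0.090, Cfap97 0.036, Cfap36 -0.32 and Dnah8 -0.17. By this measure these 4 members did not follow the ependymal markers. Cfap58, Cfap69 and Tekt5, among others, also had low r (0.18, 0.13 and 0.36 over all libraries, 0.097, 0.20 and 0.18 within the sets). Which cells these genes come from was not tested.

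**Figure D4:**
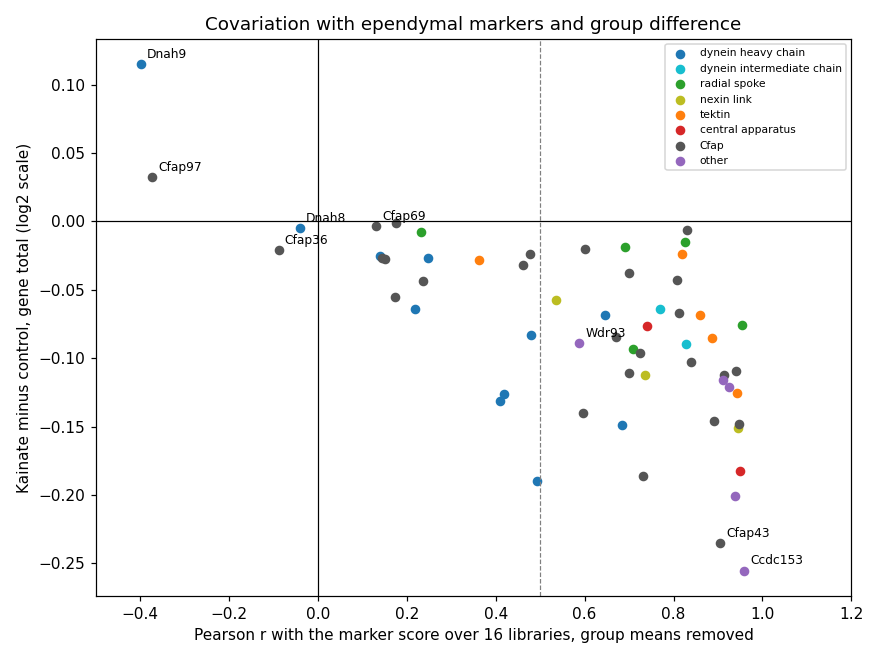
Each point is a motile cilia gene, coloured by role, with Pearson's r against the ependymal marker score over 16 libraries after removal of group means (x axis) and the kainate minus control difference of its gene total on the log2 scale (y axis). The dashed line marks r of 0.5, which 38 of 59 genes exceed; Dnah9 and Cfap97 lie at the upper left.

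Outside the rule, the 8 genes with the highest r were Daw1 (0.97), Lrrc34, Fam183b and Bbox1 (0.95 to 0.96), Dnali1, Erich2, LOC103689994 and Ccdc190 (0.94 to 0.95). Daw1 helps to bring outer arms into cilia and Dnali1 is a light chain of the inner arm. Their differences ran from -0.065 ± 0.032 for Bbox1 to -0.17 ± 0.077 for Ccdc190 (SE, n = 8 per group), the same direction as most members. They were picked for likeness over the same 16 libraries.

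A second list held other genes of the motile cilium, 84 of them measured among 104 symbols that include older and newer names of a gene. Of these, 75 had lower means in kainate libraries (52.4% of all genes), and the median difference was -0.041. Without both libraries of replicate 2, 68 did (53.2% of all genes), with a median of -0.019. At an unadjusted p under 0.05, limma put 6 lower and 0 higher (0.922% and 0.464% of all genes), and with the replicate block 15 lower and 1 higher (2.55% and 4.05%). Without both libraries of replicate 2, 0 were lower at that p (0.771% of all genes). Ak7, an adenylate kinase of ciliated cells, differed by -0.24 ± 0.11, Ccdc173 by -0.046 ± 0.018 and Morn3 by -0.034 ± 0.014 (SE, n = 8 per group). The summed level of this list had an r of 0.83 with the marker score.

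Genes of cilia in general had medians close to that of all genes. Intraflagellar transport carries cargo along cilia of both kinds, and 17 of its 31 measured genes had lower means, with a median of -0.0027. Dync2h1, the motor of the return trip, differed by 0.12 ± 0.093, Ttc30b by -0.059 ± 0.040 and Ift46 by -0.052 ± 0.039 (SE, n = 8 per group). Among proteins of the primary cilium of neurons, 9 of 16 had lower means, with a median of -0.0017, and Gpr161, Pkd2 and Bbs4 differed by 0.12 ± 0.077, 0.047 ± 0.046 and 0.036 ± 0.036 (SE, n = 8 per group). These medians were 0.0028 and 0.0027 with both replicate 2 libraries left out. No gene of either list was under an unadjusted p of 0.05 by limma. Under the block 1 transport gene was lower and 2 higher, and 1 gene of the primary cilium was higher (2.55% and 4.05% of all genes). The difference between these lists and the members was not tested.

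Of 17 measured regulators that start the formation of many cilia, 9 had lower means and 8 higher, with a median of -0.010 (0.012 without both libraries of replicate 2). Limma put 1 lower and 0 higher at an unadjusted p under 0.05 (0.922% and 0.464% of all genes). With the block it put 2 lower and 1 higher (2.55% and 4.05%). Myb, which acts early in that programme, had an r of 0.88 with the marker score and differed by -0.037 ± 0.030 (SE, n = 8 per group). Ccdc67, the deuterosome gene, differed by -0.024 ± 0.0099, with an unadjusted limma p of 0.0246. Rfx3, an RFX factor needed for cilia in mice, differed by 0.21 ± 0.11 (SE, n = 8 per group; limma unadjusted p = 0.0744). With the replicate block limma's unadjusted p for Rfx3 was 0.000485 (adjusted p = 0.750), and it was higher after kainate in 7 of 8 pairs, while its r with the marker score was -0.27 over all libraries and 0.35 within the sets of replicates. Gmnn, a brake on the start of the programme, differed by -0.065 ± 0.034 and Rfx2 by -0.017 ± 0.043 (SE, n = 8 per group).

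Markers of other cells that a dissection beside the ventricle could hold were read in the same libraries. Of 21 choroid plexus genes 15 were measured, 11 of them with lower means and a median of -0.018. The defining genes Ttr, Otx2 and Kcnj13 had no value under these symbols and were not analysed here. Kl and Clic6, also defining, stood at means of 2.45 and 2.19 after kainate and 2.44 and 2.19 in controls. The summed level of the list (a sum of 2-power values) was 4284 to 4854 in kainate libraries, against 4501 to 5001 in controls. Its r with the marker score was 0.40. Igfbp2 and Enpp2 weigh most in this sum, at mean log2 totals of 10.84 and 10.72 after kainate. Folr1 differed by -0.13 ± 0.066 (SE, n = 8 per group) with an r of 0.89, the highest of the list. The list's median r was 0.21, or 0.17 within the sets of replicates, and 4 of its genes had r over 0.5. Aqp1 and Kcne2 each had an r of -0.41. Of the choroid plexus genes 1 was lower at an unadjusted p under 0.05, or 3 with the replicate block (0.922% and 2.55% of all genes). All 10 myelin genes had lower means, with a median of -0.12. At that p 1 of them was lower, or 4 with the block (0.922% and 2.55% of all genes). Their summed level was 226803 to 311837 in kainate libraries, against 246108 to 330027 in controls, and its r with the marker score was -0.20. Vim, found in ependyma and other glia, differed by -0.12 ± 0.066 (SE, n = 8 per group) with an r of 0.77. It was the 1 gene with r over 0.5 among 11 ependymal genes that are no cilia genes; Cdh2 had -0.67, Nes -0.38 and Prom1 -0.32, and the list's median r was 0.35, or 0.036 within the sets. Of these 11, 8 had lower means. Their summed level had an r of 0.44 with the marker score. The summed level of those 11 was 51301 to 57415 in kainate libraries, against 54917 to 58797 in controls. S100b weighs most in this sum, at a mean log2 total of 14.83 after kainate, and its own r was 0.30. Of 9 dentate granule cell genes 8 had higher means, 2 of them at an unadjusted p under 0.05 (0.464% of all genes), or 4 with the replicate block (4.05%). The 9 astrocyte genes had a median of 0.0030, and the medians were -0.029 for 9 microglia, 0.013 for 8 vessel, 0.0087 for 9 meningeal, 0.046 for 8 CA1 and 0.058 for 9 dentate granule cell genes. With the replicate block, limma put 3 CA1 genes higher at an unadjusted p under 0.05 (4.05% of all genes). It put 2 microglia genes, 1 meningeal gene and 1 of the 11 ependymal genes lower (2.55%). Without the block these 4 lists had 0 genes under that p. The part of these cells in the differences of the members was not tested.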

How the data were processed

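Gene totals were read from 16 RNA-seq libraries, 8 kainate and 8 control. The submitters' processing notes list Trim Galore, RSEM, DESeq2, SAMtools and GATK with no version or role. No aligner, build or annotation is given in the sources used here. A log2 value per isoform and animal was deposited by the authors; its form resembles a regularized logarithm. Per the file headers they also deposited a mean normalized count per isoform (a signal over all libraries), a log2 fold change, a test score, a p-value with its adjusted form, and a ratio equal to 2 to the power of the fold change. Depth is unknown, so counting intervals are not given. As nothing names litters, p-values measure the spread between these libraries.

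Isoform values were raised as powers of 2, summed by symbol and returned to log2, with no added constant or filter. Totals were fitted with limma 3.58.1 in R 4.3.3 (trend and robust empirical Bayes, tested on simulated data, two-sided), with Benjamini-Hochberg adjustment over all 16602 symbols at 0.05. Deviations of same-numbered libraries correlated at 0.127 to 0.781 over isoforms, over 0.1 in all 8 pairs. Blocked values are therefore given for most counts and calls that they move. Alternatives were the block, a term for replicates 1 to 4 against 5 to 8, each set alone, left-out libraries and pairs, an added constant of 16, mean isoform values, a mean normalized count of at least 100, median centring, and no trend or robust step. Counts of the cilium lists without replicate 2 were added after seeing the data. Named members were the markers, those under an unadjusted p of 0.05 with or without the block, and the 2 with the smallest p in each role. From each list of cilium genes the 3 with the smallest p were named, and outside the rule the 8 with the highest r. Other names were chosen after their values were seen. Members and lists were chosen with earlier results of these data known.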

Additional observations from a re-analysis of the deposited data

Results flagged for a closer look

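In 52 sets of values (26 named members in each of 2 groups of 8 libraries), 1 library stood apart from the others of its group by Dixon's test, where about 1 in 20 sets would by chance. Spag17, a protein of the central apparatus, had a log2 total of 6.67 in kainate replicate 2, against 6.90 to 7.06 in the other kainate libraries and 6.89 to 7.18 in controls. The same library had the lowest value of 18 of the 59 members, a count not taken over all genes.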

How the results depend on the processing

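All 855 recomputed differences of the 26 named members, over 33 alternatives, kept their direction, and the smallest adjusted p among them was 0.723. For 3 named members the filter on counts left no value. Apart from the markers these members were named for a small p, so a kept direction was likely from the start. The block, the term for sets of replicates, the count filter and the lack of trend or robust step cannot change a difference. With the replicate block, 11 members were lower and 1 higher at an unadjusted p under 0.05 (2.55% and 4.05% of all genes). Without it 7 were lower and 0 higher (0.922% and 0.464%). A term for replicates 1 to 4 against 5 to 8 gave 1 higher (3.23% of all genes). Replicates 1 to 4 alone gave 2 lower and 1 higher (1.01% and 1.03%). The fit with no trend or robust step gave 4 lower, and the share of all genes was not taken for it. With libraries left out singly or in same-numbered pairs, the number lower at that p ran from 1 to 25, the number with lower means from 47 to 57 and the median difference from -0.10 to -0.036. The count was 25 without both libraries of replicate 1 (1.49% of all genes), 1 without those of replicate 2 or 8 (0.771% and 0.56%), 2 without replicate 3 (0.735%), and 4 without replicate 4 or 5 (0.819% and 0.765%). The cause was not tested. The block changed no call at an adjusted p of 0.05, and no alternative called a member. The compressed scale limits what can be seen in weakly expressed members.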
